A study of Mus musculus with 5 samples.

Results

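Lymphocytes recognise antigen through surface receptors whose signals pass to kinases inside the cell. The 10 genes described here code for parts of that machinery and for proteins that act with, restrain or modify it. Cd3e and Cd3d belong to the T cell receptor complex, Lck and Zap70 are kinases that act on it, and Cd79a and Cd79b belong to the B cell receptor. Vpreb3 is made in B cell precursors, and Havcr2, Tnfsf14 and Ptpn6 act in checkpoint signalling. All 10 were taken by name from 21883 protein coding mouse genes with a position. A window at each end of each gene was examined, from 1000 bp outside to 500 bp inside. DNA methylation at CpG sites was read by reduced representation bisulfite sequencing, which samples CpG-rich fragments of the genome. A teratoma is a tumour of differentiated tissues that grows from pluripotent cells. The groups were 4 teratomas, P5_2iL, P5_2iL_F, P5_a2iL_1 and P5_LCDM_1, which formed after embryonic stem cells kept in those culture conditions had been placed into tetraploid embryos, and a muscle control. All 5 are of the C57BL/6x129S6 strain. The labels do not spell out the culture conditions, nor give age, sex, passage or the number of animals pooled.

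Each group is 1 library, so no test was possible and every difference compares libraries, not conditions. A window was measured where 3 or more of its cytosines were listed in all 5 libraries, and its level is the plain mean of their percentages. A window was called higher or lower where the means differed by 25 percentage points or more. Read counts are missing from the files and depth is therefore unknown. Only the opposite strands of the same CpG give a measure of error. Over 14426 gene windows with 3 or more strand pairs, the standard deviation between strands was 3.62 points in P5_2iL, 3.97 in P5_2iL_F, 5.47 in P5_a2iL_1, 4.74 in P5_LCDM_1 and 5.83 in muscle. Over the 4 windows described here that have 3 or more pairs it was 6.42, 2.32, 7.76 and 18.8 points in P5_2iL, P5_2iL_F, P5_a2iL_1 and P5_LCDM_1, and 6.28 in muscle. This spread covers sampling within a library and not the spread between animals or preparations.

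The muscle label was checked against 17 windows of 12 skeletal muscle genes out of 16. Of these, 10 were called higher in P5_2iL, 10 in P5_2iL_F, 8 in P5_a2iL_1 and 8 in P5_LCDM_1 than in muscle, and 0 were lower. Over all gene windows the shares called higher were 7.28%, 6.92%, 4.66% and 4.82% in the same order, and 1.18% to 1.6% were called lower. Casq1, the calcium buffer of the muscle reticulum, stood at 96.3% in P5_2iL and at 14.3% in muscle, over 3 cytosines. Mylpf, another gene of this list, stood at 91.8% and 24.7% over 80 cytosines. The median difference of this list was 25.7 points in P5_2iL, 29.3 in P5_2iL_F, 21.7 in P5_a2iL_1 and 13 in P5_LCDM_1. The teratomas listed from 4446459 to 5323090 cytosines and muscle listed 4017125.

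In mature T cells the CD3 subunits carry the signalling tails of the receptor, Lck phosphorylates those tails, and Zap70 docks on them and passes the signal on. Cd79a and Cd79b play the matching part beside surface immunoglobulin in B cells. Havcr2 encodes an inhibitory receptor found on exhausted T cells and on some myeloid cells, Tnfsf14 encodes the ligand LIGHT, and Ptpn6 encodes a phosphatase of blood cells that dampens these receptors. In bulk tissue a methylation level averages over all cells, so a change in the share of a cell type and a change within cells cannot be told apart.

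Of the 20 windows, 7 were measured in all 5 libraries, in 6 of the 10 genes. Another 12 held listed cytosines but fewer than 3 common to all 5 libraries, and 1, the 5' end of Cd3d, held none. For comparison, 18340 of all 43766 gene windows were measured. The measured windows are both ends of Zap70, the 5' ends of Lck and Tnfsf14, and the 3' ends of Havcr2, Vpreb3 and Ptpn6. Levels ran from 0% for Havcr2 in P5_2iL to 100% for Vpreb3 in muscle.

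**Figure D1:**
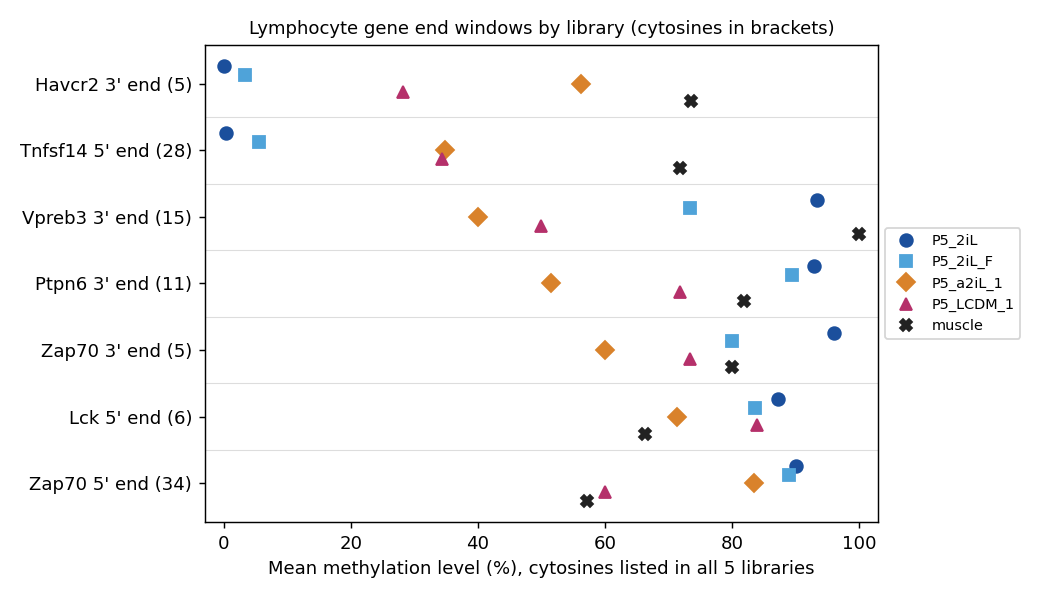
Mean methylation level in percent (x axis) of the 7 measured windows (rows, number of cytosines in brackets) in each library (symbols). Havcr2 and Tnfsf14 lie under 10% in P5_2iL and P5_2iL_F and over 70% in muscle. The lowest teratoma values of Vpreb3, Ptpn6, Lck and the 3' end of Zap70 are those of P5_a2iL_1.

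The measured windows of Tnfsf14 and Havcr2, the ligand and the inhibitory receptor, had almost no methylation in P5_2iL and P5_2iL_F and high methylation in muscle. At Tnfsf14, whose 5' window lies at chr17:57193682-57195181 (mm10, minus strand), 28 cytosines averaged 0.376% in P5_2iL, 5.47% in P5_2iL_F, 34.8% in P5_a2iL_1 and 34.4% in P5_LCDM_1, against 71.9% in muscle. The differences from muscle were -71.5 points in P5_2iL, -66.4 in P5_2iL_F, -37.1 in P5_a2iL_1 and -37.5 in P5_LCDM_1, all past the size rule. The teratomas formed a pair close to 0% and a pair near 35%, with muscle above both. The promoter holds the start site and 6 of the 28 cytosines. Its 300 bases from RefSeq (GRCm38.p6, the build of mm10; chr17:57194132-57194431, minus strand) are shown with capitals at the 5 of 7 CpGs that had a cytosine listed in all 5 libraries.
Tnfsf14: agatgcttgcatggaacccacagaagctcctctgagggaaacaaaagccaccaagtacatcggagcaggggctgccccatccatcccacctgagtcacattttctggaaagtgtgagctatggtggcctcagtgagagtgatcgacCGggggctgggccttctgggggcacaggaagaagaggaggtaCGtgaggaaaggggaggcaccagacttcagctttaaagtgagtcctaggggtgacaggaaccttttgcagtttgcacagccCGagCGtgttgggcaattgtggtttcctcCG

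The 6 cytosines inside the printed promoter averaged 1.75% in P5_2iL, 1.19% in P5_2iL_F, 13.9% in P5_a2iL_1 and 19.4% in P5_LCDM_1, against 59.2% in muscle. The other 22 averaged 0% in P5_2iL, 6.64% in P5_2iL_F, 40.5% in P5_a2iL_1 and 38.5% in P5_LCDM_1, against 75.3% in muscle. Of the 28, 27 were lower in P5_2iL than in muscle, 27 in P5_2iL_F, 25 in P5_a2iL_1 and 26 in P5_LCDM_1. The remaining cytosine of the first count, at chr17 position 57194132 in the last CpG of the printed promoter, was listed at 0% in every library, while its partner on the other strand was at 80% in muscle. Along the gene, 6 cytosines from 19 to 92 bp inside averaged 0.877%, 4.05%, 21.8% and 23.7% in P5_2iL, P5_2iL_F, P5_a2iL_1 and P5_LCDM_1, against 68.3% in muscle. Further in, 20 cytosines from 158 to 479 bp averaged 0% in P5_2iL, 6.45% in P5_2iL_F, 40.2% in P5_a2iL_1 and 39.3% in P5_LCDM_1, against 73.8% in muscle. The order of the libraries was nearly the same in both stretches, with P5_a2iL_1 and P5_LCDM_1 within 2 points of each other. Over 12 CpGs read on both strands, P5_2iL minus muscle was -63.7 points on the first strand and -81.1 on the second. In P5_a2iL_1 the differences from muscle were -28.1 and -39.7 points, so both strands passed the size rule there too.

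The 5 cytosines of Havcr2 lie 411 to 495 bp inside the gene from its 3' end (window chr11:46480756-46482255, plus strand). They averaged 0% in P5_2iL, 3.33% in P5_2iL_F, 56.2% in P5_a2iL_1 and 28.2% in P5_LCDM_1, against 73.6% in muscle. The window was lower than in muscle by the size rule in P5_2iL (-73.6 points), P5_2iL_F (-70.2) and P5_LCDM_1 (-45.3), and the -17.4 points of P5_a2iL_1 did not reach it. All 5 cytosines were lower than in muscle in P5_2iL, P5_2iL_F and P5_LCDM_1, and 3 of 5 in P5_a2iL_1. The 5 include both strands of the same CpGs, as do the counts for Tnfsf14 and Ptpn6, so they are not independent readings. At the 5' end of Havcr2, 4 cytosines were listed in both P5_LCDM_1, at 0%, and P5_2iL_F, at 100%, with none listed in muscle.

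**Figure D2:**
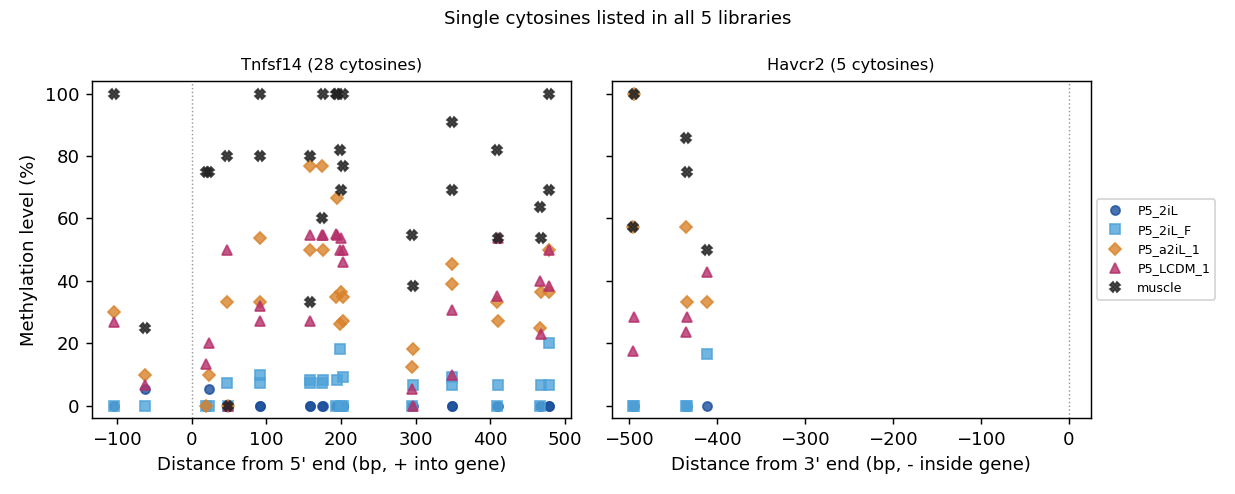
Methylation level in percent (y axis) of single cytosines listed in all 5 libraries against distance in bp from the 5' end of Tnfsf14 (left, positive into the gene) and from the 3' end of Havcr2 (right, negative inside the gene). Points of P5_2iL and P5_2iL_F stay at 20% or below in both genes, and those of P5_a2iL_1 and P5_LCDM_1 mostly lie between them and muscle.

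Few gene windows were high in muscle and close to 0% in a teratoma. Of 4336 gene windows at 50% or more in muscle, 1.34% lay under 10% in P5_2iL and 0.784% in P5_2iL_F, and Havcr2 and Tnfsf14 were among them in both teratomas. The shares were 0.115% in P5_a2iL_1 and 0.161% in P5_LCDM_1, with none of the 10 genes among them. The windows nearest to Tnfsf14 in their 5 levels, of 17092 searched, belonged to Nckap1l (root mean square difference 3.83 points), Ripor2 (5.14) and Arhgef18 (5.45). Those nearest to Havcr2 belonged to Fam110a (7.23 points), Ccl4 (9.28) and Arhgap30 (9.71).

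Some pan-leukocyte genes were also low where Tnfsf14 and Havcr2 were low. The list was chosen with earlier results of these data known. Of the 16 genes listed, 9 had a measured window, 11 windows in all. Of these 11, 5 were called lower than muscle in P5_2iL, 5 in P5_2iL_F, 3 in P5_a2iL_1 and 3 in P5_LCDM_1, and 0 higher. Their levels ran from 0% to 85.3% in P5_2iL (median 0.952%), 0% to 84.3% in P5_2iL_F (median 8.88%), 1.89% to 90.5% in P5_a2iL_1 (median 42.1%) and 5.2% to 100% in P5_LCDM_1 (median 43.6%), against 0.449% to 100% in muscle (median 61.5%). Rac2, a small GTPase of blood cells, was at 0% in P5_2iL and at 94.4% in muscle, and Arhgap30 was at 0% in P5_2iL_F and at 81% in muscle. The median difference of the list from muscle was -20.5 points in P5_2iL, -15.7 in P5_2iL_F, -9.52 in P5_a2iL_1 and 0 in P5_LCDM_1. Over all gene windows, 1.58% were called lower than muscle in P5_2iL, 1.41% in P5_2iL_F, 1.18% in P5_a2iL_1 and 1.6% in P5_LCDM_1. The shares called higher were 7.28%, 6.92%, 4.66% and 4.82% in the same order. The part of leukocyte content in the values of Tnfsf14 and Havcr2 was not tested.

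Among the T cell receptor genes, Zap70 went the other way at its 5' end (chr1:36760798-36762297, plus strand). Its 34 cytosines averaged 90.2% in P5_2iL, 89% in P5_2iL_F, 83.4% in P5_a2iL_1 and 60% in P5_LCDM_1, against 57.2% in muscle. The window was called higher than muscle in P5_2iL (32.9 points), P5_2iL_F (31.8) and P5_a2iL_1 (26.2), while P5_LCDM_1 differed by 2.75 points. With the window cut to 500 bp outside, the differences of P5_2iL_F and P5_a2iL_1 were 23.9 and 22.3 points and no longer called. That of P5_LCDM_1 was then -13.7 points, and that of P5_2iL, 25.4 points, was still called. The promoter is shown because its CpGs separate P5_LCDM_1 from the other teratomas (RefSeq, GRCm38.p6, chr1:36761548-36761847, plus strand), with capitals at the 5 of 8 CpGs that had a cytosine listed in all 5 libraries. Its 9 cytosines averaged 82.4% in P5_2iL, 79% in P5_2iL_F, 80.1% in P5_a2iL_1 and 28.2% in P5_LCDM_1, against 25.8% in muscle.
Zap70: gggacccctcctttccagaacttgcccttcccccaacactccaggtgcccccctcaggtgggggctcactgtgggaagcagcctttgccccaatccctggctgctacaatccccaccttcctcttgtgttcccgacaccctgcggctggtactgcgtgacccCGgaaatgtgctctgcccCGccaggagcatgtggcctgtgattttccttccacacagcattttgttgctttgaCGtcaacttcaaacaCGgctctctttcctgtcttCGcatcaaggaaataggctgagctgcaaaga

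The Zap70 window was uneven along its length. From 995 to 653 bp upstream, 10 cytosines averaged 92.1% in P5_2iL, 91.7% in P5_2iL_F, 76.7% in P5_a2iL_1 and 83.4% in P5_LCDM_1, against 41.1% in muscle. There the strands of muscle disagreed, at 0% on the first and 62.2% on the second. Around the start, from 88 bp upstream to 133 bp inside, 15 cytosines averaged 86.6% in P5_2iL, 84.5% in P5_2iL_F, 83.3% in P5_a2iL_1 and 31.8% in P5_LCDM_1, against 43.3% in muscle. At the start itself, then, P5_LCDM_1 lay with muscle and apart from the other teratomas. Its strands read 48% and 13.3%, and those of muscle 60.3% and 23.8%. From 233 to 344 bp inside, 9 cytosines stood at 80.9% to 94% in the teratomas and at 98.4% in muscle. The stretches were chosen after the values had been seen.

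**Figure D3:**
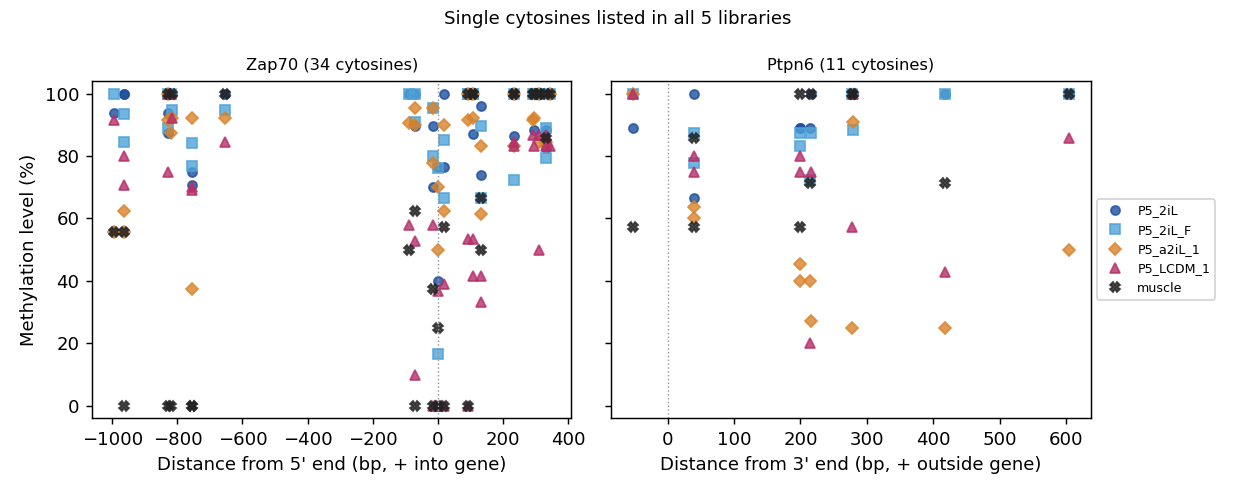
Methylation level in percent (y axis) of single cytosines listed in all 5 libraries against distance in bp from the 5' end of Zap70 (left, positive into the gene) and from the 3' end of Ptpn6 (right, positive outside the gene). Around the Zap70 start the P5_LCDM_1 points average 31.8% and those of muscle 43.3%, while the other teratomas average over 80%, and the P5_a2iL_1 points of Ptpn6 average 51.6%.

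The 3' end of Zap70 (chr1:36782322-36783821) rested on 5 cytosines, at 96% in P5_2iL, 80% in P5_2iL_F, 60% in P5_a2iL_1 and 73.3% in P5_LCDM_1, against 80% in muscle. None of these differed from muscle by 25 points. A later start site of Zap70 annotated in RefSeq, at position 36764515, had a window of 21 cytosines at 95.4% in P5_2iL, 86.7% in P5_2iL_F, 71.6% in P5_a2iL_1 and 83.4% in P5_LCDM_1, against 75.3% in muscle.

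Lck, the kinase upstream of Zap70, is known to use a distal and a proximal promoter. Its outer 5' window (chr4:129573142-129574641, minus strand) held 6 cytosines, all 619 to 876 bp upstream, at 87.2% in P5_2iL, 83.7% in P5_2iL_F, 71.3% in P5_a2iL_1 and 84% in P5_LCDM_1, against 66.3% in muscle. The largest difference from muscle, 21 points in P5_2iL, stayed under the size rule. At the inner start site, position 129558372, 4 cytosines were at 68.8% in P5_2iL, 100% in P5_2iL_F, 100% in P5_a2iL_1 and 91.7% in P5_LCDM_1, against 87.5% in muscle.

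The CD3 subunit genes were thinly covered. Cd3e had 9 cytosines upstream of its 5' end (window chr9:45009164-45010663, minus strand) in each teratoma and none in muscle, so muscle could not be compared. They averaged 81.9% in P5_2iL, 79.1% in P5_2iL_F, 68.7% in P5_a2iL_1 and 50.7% in P5_LCDM_1. P5_LCDM_1 was lower by the size rule than P5_2iL (-31.2 points) and P5_2iL_F (-28.4), and lower than P5_a2iL_1 by less (-18). The promoter is printed to show where 6 of the 9 cytosines lie (RefSeq, GRCm38.p6, chr9:45009562-45009861, minus strand), with capitals at the 4 of 8 CpGs that had a cytosine listed in all 4 teratomas. Over these 6, P5_LCDM_1 averaged 57.3%, against 79.2% in P5_2iL (-21.9 points) and 74.9% in P5_2iL_F (-17.6), both under the size rule. Over the 3 further upstream it averaged 37.5%, against 87.5% in P5_2iL and 87.5% in P5_2iL_F, so the calls depended on those 3.
Cd3e: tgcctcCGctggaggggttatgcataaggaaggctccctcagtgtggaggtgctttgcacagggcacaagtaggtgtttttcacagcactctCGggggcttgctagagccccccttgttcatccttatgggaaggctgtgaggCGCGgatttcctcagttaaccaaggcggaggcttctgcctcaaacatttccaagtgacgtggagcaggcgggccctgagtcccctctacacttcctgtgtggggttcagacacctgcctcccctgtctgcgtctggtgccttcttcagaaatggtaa

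The Cd3d gene, which lies 11.7 kb from Cd3e, had 3 cytosines at its 3' end in common between P5_LCDM_1, at 5.56%, and P5_a2iL_1, at 6.06%. The 12 RefSeq promoter entries of 9 of the genes, Cd79b having none there, held 1 to 9 CpGs in 300 bases, against a median of 7 over 32851 promoters. TGTGGT, the core of a RUNX-type site, was searched on both strands and occurred in 16.8% of all promoters, including that of Tnfsf14 printed above. GAGGAA, a PU.1-type ETS core, occurred in 28.3% and in all 3 printed promoters. It was absent from the entries of Ptpn6 and Vpreb3, the inner Lck entry and the last of the Zap70 entries. AGATAA, the core motif of the GATA family, occurred in 11.2% and was not found in the entries of these genes. No match of one motif in the printed promoters overlapped a match of another. A match is a run of letters, not evidence of binding.

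Among Cd79a, Cd79b and Vpreb3, only Vpreb3 had a window measured in all 5 libraries, and its lowest mean level was in P5_a2iL_1. Vpreb3, which is made in B cell precursors, had 15 cytosines in its 3' window (chr10:75949158-75950657, plus strand) at 93.3% in P5_2iL, 73.3% in P5_2iL_F, 40% in P5_a2iL_1 and 50% in P5_LCDM_1, against 100% in muscle. All 15 were at 100% in muscle, and each was at 0% or 100% in P5_2iL. P5_a2iL_1 held only values of 0%, 33.3% and 100%, and P5_LCDM_1 only 25%, 50% and 100%. The number of reads behind these coarse values is unknown. The differences from muscle were -6.67 points in P5_2iL, -26.7 in P5_2iL_F, -60 in P5_a2iL_1 and -50 in P5_LCDM_1, so the last 3 were called lower. By the median over cytosines P5_2iL_F did not differ from muscle (0 points). Over 7 CpGs read on both strands, P5_LCDM_1 stood at 25% on the first and 67.9% on the second, a gap wider than its difference from P5_a2iL_1. P5_a2iL_1 stood at 42.9% and 28.6%, so P5_LCDM_1 was the lower library on the first strand. By the median over cytosines P5_LCDM_1 minus P5_a2iL_1 was -8.33 points, so which library was lowest depended on the measure. Around the annotated Vpreb3 start site, which lies within the gene record at position 75948300, 11 cytosines were at 83.4% in P5_2iL, 86.7% in P5_2iL_F, 76.3% in P5_a2iL_1 and 80.8% in P5_LCDM_1, against 88.2% in muscle, with no difference of 25 points.

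The remaining Cd79a, Cd79b and Vpreb3 windows could be compared only between some libraries. At the lower end of the Vpreb3 record, 7 cytosines were at 42.9% in P5_2iL_F and at 100% in muscle. At the 3' end of Cd79a, 3 cytosines were at 29.2% in P5_2iL_F and at 58.3% in muscle. At the upper end of Cd79b, 5 cytosines were at 0% in P5_2iL, 0% in P5_2iL_F and 16.7% in P5_LCDM_1, against 0% in muscle.

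Ptpn6 resembled Vpreb3 in having its lowest mean level in P5_a2iL_1, although for Vpreb3 this order depended on the measure. At its 3' end (chr6:124719707-124721206, minus strand), 11 cytosines averaged 92.9% in P5_2iL, 89.5% in P5_2iL_F, 51.6% in P5_a2iL_1 and 71.9% in P5_LCDM_1, against 81.8% in muscle. P5_a2iL_1 was called lower than muscle (-30.2 points), with 9 of 11 cytosines lower, and the others differed by 11.1 points or less in either direction. Over 4 CpGs with both strands, P5_a2iL_1 minus muscle was -28.9 points on the first and -40.9 on the second.

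Over the 7 windows, lower calls outnumbered higher ones in each teratoma at 25 points, while over all genes more were called higher. For P5_2iL this order turned at a threshold of 15 points, with 3 higher and 2 lower, and the first strand alone gave 1 and 1. In P5_2iL, 1 of 7 was higher and 2 were lower than in muscle, where 7.28% of all gene windows were higher and 1.58% lower. In P5_2iL_F the counts were 1 higher and 3 lower, beside 6.92% and 1.41% of all windows. In P5_a2iL_1 they were 1 higher and 3 lower, beside 4.66% and 1.18%. In P5_LCDM_1 they were 0 higher and 3 lower, beside 4.82% and 1.6%. The median difference of the 7 windows was 11.1 points in P5_2iL, 0 in P5_2iL_F, -20 in P5_a2iL_1 and -9.94 in P5_LCDM_1, beside 0.381, 0.34, 0.281 and 0.264 points over all windows. These 4 comparisons share the muscle library. The members were chosen with earlier results of these data known, so their contrast with all genes is not independent of that choice.

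**Figure D4:**
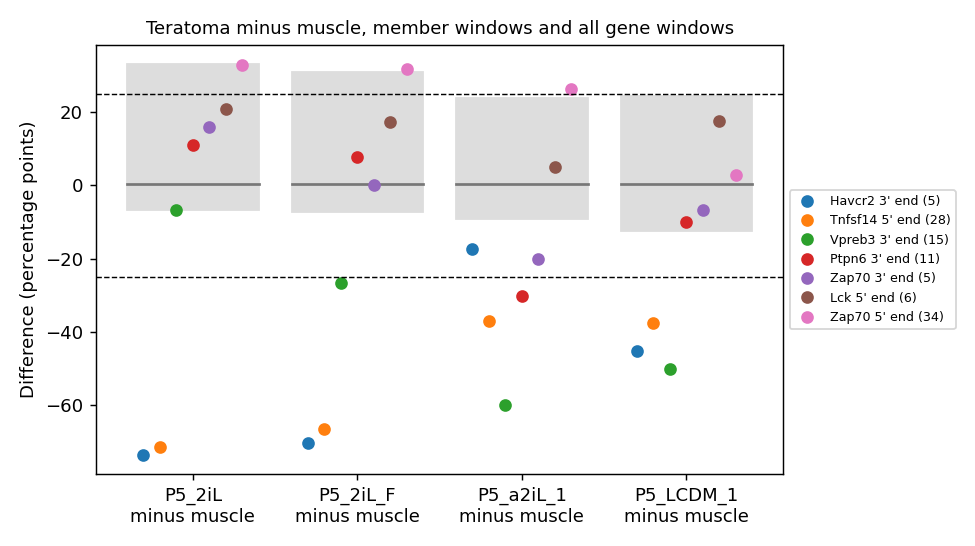
Difference in mean methylation level, teratoma minus muscle, in percentage points (y axis), of the 7 measured windows (points) in each comparison (x axis). Grey boxes span the 5th to 95th percentile of all 18340 gene windows and the grey line is their median, dashed lines mark 25 points, and Tnfsf14 lies below the box in all 4 comparisons.

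Between teratomas, P5_2iL_F and P5_2iL differed at 0 of the 7 windows, beside 0.594% of all gene windows. Against P5_2iL, P5_a2iL_1 was higher at 2 windows, Havcr2 (56.2 points) and Tnfsf14 (34.4), beside 1.34% of all windows. It was lower at 3, Vpreb3 (-53.3), Ptpn6 (-41.4) and the 3' end of Zap70 (-36), beside 2.65%. By the median over cytosines the last of these was 0. P5_LCDM_1 was higher than P5_2iL at Tnfsf14 (34 points) and Havcr2 (28.2), beside 1.76% of all windows, and lower at Vpreb3 (-43.3) and the 5' end of Zap70 (-30.2), beside 4.13%. For the Vpreb3 difference the strands gave -75 and -17.9 points, and for Zap70 -20.2 and -43.1. Against P5_2iL_F, P5_a2iL_1 was higher at 2 windows and lower at 2 (1.07% and 2.02% of all windows), and P5_LCDM_1 was higher at 1 and lower at 1 (1.55% and 3.56%). Between P5_LCDM_1 and P5_a2iL_1, Havcr2 was the 1 window called lower (-28 points, beside 2.25% of all windows), and 0 were called higher (1.85%). With 500 bp outside, the 5' end of Zap70 was also lower (-36 points), and by the median over cytosines Ptpn6 was higher (29.5). On the second strand alone Zap70 (-31.3 points) and Vpreb3 (39.3) passed the rule and Havcr2 (-22.2) did not.

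Inside the genes, 23 tiles of at most 1 kb in 7 of the 10 genes were measured, an extension added after the end windows had been seen. Of these, 5 were called lower and 2 higher than muscle in P5_2iL, beside 3.42% and 18.2% of 107524 tiles in all genes. The counts were 6 lower and 2 higher in P5_2iL_F (3.21% and 16.9%), 3 lower and 1 higher in P5_a2iL_1 (2.94% and 12%) and 2 lower and 1 higher in P5_LCDM_1 (5.39% and 10.6%).

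In each teratoma the lower tile with the largest difference from muscle lay in Ptpn6. The human gene is known to have an upstream promoter of epithelial cells and an inner promoter of blood cells, and whether the mouse tile matches either was not tested. From 5860 to 6016 bp inside the mouse gene, 7 cytosines were at 0% in P5_2iL, 11.7% in P5_2iL_F, 28.3% in P5_a2iL_1 and 70.8% in P5_LCDM_1, against 65.2% in muscle. From 5614 to 5693 bp, 3 cytosines were at 0.98%, 1.39%, 0% and 6.18% in P5_2iL, P5_2iL_F, P5_a2iL_1 and P5_LCDM_1, against 46.3% in muscle. P5_LCDM_1 thus lay with muscle in the first of these tiles and with the other teratomas in the next. Closer to the 3' end, 4 cytosines from 15106 to 15548 bp were at 66.7% in P5_2iL, 50% in P5_2iL_F, 70.8% in P5_a2iL_1 and 50% in P5_LCDM_1, against 91.7% in muscle.

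A tile in each of Cd3d and Cd79b was also close to 0% in P5_2iL, whereas the measured inner tiles of Vpreb3 were at 98.9% and 87% there. In Cd3d, 15 cytosines from 4558 to 4768 bp inside were at 0% in P5_2iL, 0% in P5_2iL_F, 11.3% in P5_a2iL_1 and 24.5% in P5_LCDM_1, against 35.3% in muscle. In Cd79b, 6 cytosines from 2475 to 2515 bp above the lower end were at 0.476% in P5_2iL, 6.12% in P5_2iL_F, 9.65% in P5_a2iL_1 and 38.8% in P5_LCDM_1, against 40.5% in muscle. The Cd3d and Cd79b tiles were called lower than muscle in P5_2iL and P5_2iL_F, and that of Cd79b also in P5_a2iL_1. Strands differed widely where levels were intermediate, at 53.7% and 23.8% for Cd79b in P5_LCDM_1 and at 14.3% and 66.7% in muscle. For Cd3d in P5_LCDM_1 the strands read 0% and 47.7%. On the first strand of Cd79b, P5_2iL (0.952%), P5_2iL_F (10%) and P5_a2iL_1 (19.3%) lay within 25 points of muscle, and P5_a2iL_1 above it. The Cd79b calls therefore rested on the second strand, at 0%, 2.22% and 0% in the same order. In Tnfsf14, 9 cytosines from 505 to 852 bp inside were at 36.7% in P5_2iL, 27.4% in P5_2iL_F, 61% in P5_a2iL_1 and 45.5% in P5_LCDM_1, against 53.8% in muscle, with P5_2iL_F called lower. Over 4 CpGs read on both strands, P5_2iL_F stood at 23.9% and 30%, and muscle at 79.7% and 25%. P5_2iL_F was thus lower on the first strand only. The other inner tiles of Tnfsf14, of 16 and 4 cytosines, were at 96% and 100% in P5_2iL and at 90.6% and 100% in muscle.

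The kinases held the higher tiles. In Lck, 9 cytosines from 763 to 1478 bp inside were at 83.8% in P5_2iL, 82.4% in P5_2iL_F, 36.8% in P5_a2iL_1 and 21.9% in P5_LCDM_1, against 26% in muscle. Near the 3' end of Zap70, 4 cytosines from 20260 to 20344 bp inside were at 95% in P5_2iL, 75% in P5_2iL_F, 96.1% in P5_a2iL_1 and 85.9% in P5_LCDM_1, against 18.3% in muscle. A tile of 31 cytosines in Lck, from 16671 to 17498 bp, was close to unmethylated everywhere, at 0.281% in P5_2iL, 0.58% in P5_2iL_F, 7.93% in P5_a2iL_1 and 1.8% in P5_LCDM_1, against 0.461% in muscle.

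**Figure D5:**
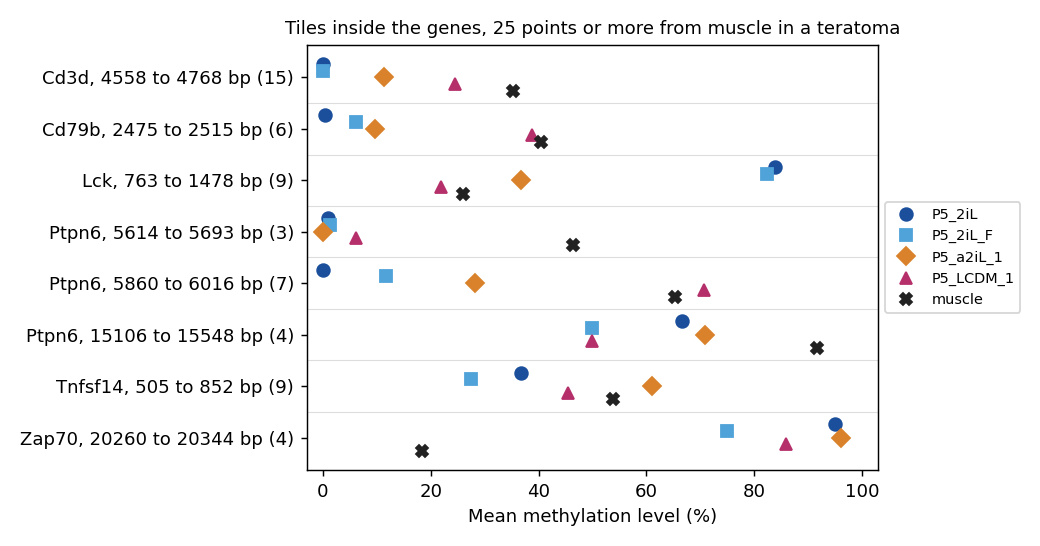
Mean methylation level in percent (x axis) of the 8 tiles inside the genes (rows, cytosines in brackets) that differ from muscle by 25 points or more in a teratoma. Distances run from the 5' end, or for Cd79b from the lower end. The mean of P5_LCDM_1 lies within 6 points of muscle in the Cd79b, Lck and Ptpn6 (5860 to 6016 bp) tiles. For Cd79b the strands do not share this closeness, at 53.7% and 23.8% in P5_LCDM_1 and 14.3% and 66.7% in muscle.

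Other genes of the same pathways gave mixed calls. Beside the counts below, the shares of all gene windows called higher than muscle were 7.28% in P5_2iL, 6.92% in P5_2iL_F, 4.66% in P5_a2iL_1 and 4.82% in P5_LCDM_1. The shares called lower were 1.58%, 1.41%, 1.18% and 1.6% in the same order. Of 25 T cell receptor genes, 16 had measured windows, 18 in all. In P5_2iL 2 of these windows were higher and 4 lower than muscle, in P5_2iL_F 2 and 4, in P5_a2iL_1 1 and 3, and in P5_LCDM_1 1 and 2. The median difference of the list lay between -2.87 and -0.17 points. Cd27, a costimulatory receptor, stood at 13.7% in P5_2iL and at 65.3% in muscle. Of 21 B cell receptor genes, 13 had measured windows, 16 in all, with median differences of 0.4 to 3.88 points. Syk, the B cell counterpart of Zap70, was called higher than muscle in P5_2iL, P5_2iL_F and P5_a2iL_1, Cd72, a B cell surface coreceptor, was called lower in P5_a2iL_1, and 0 windows were called in P5_LCDM_1. Of 27 checkpoint and costimulatory genes, 14 had measured windows, 15 in all, with median differences of 0.191 to 1.81 points. Here 3 were higher and 1 lower in P5_2iL, 3 and 0 in P5_2iL_F, 2 and 0 in P5_a2iL_1, and 0 and 0 in P5_LCDM_1. Lag3, an inhibitory receptor like Havcr2, was at 73.2% in P5_2iL, 79.1% in P5_2iL_F, 60% in P5_a2iL_1 and 18.6% in P5_LCDM_1, against 6% in muscle, and the first 3 were called higher. Myeloid genes, 5 of 13 with a measured window, had 2 higher and 1 lower window in P5_2iL and in P5_2iL_F, 1 and 1 in P5_a2iL_1, and 2 and 0 in P5_LCDM_1, with median differences of 0 to 22.2 points.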

How the data were processed

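The deposited files give a methylation percent per CpG cytosine for each library, made by the authors with Trim Galore 0.6.4 and Bismark on mm10, per the submitters' processing notes. Not given in the sources used here are the Bismark version, the coverage minimum and the caller's settings. Libraries were PCR amplified and size-selected on a gel, per the labels. No read counts are in the files, so depth is known only as cytosines listed, and no interval was computed.

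Column 2 was taken as the position counted from 1, because 100% of 490393 listed cytosines within RefSeq promoters then fell in a CG, against 56.2% with column 3. Gene positions and promoters came from RefSeq tables of GRCm38.p6. Window means used cytosines listed in all 5 libraries, at least 3, each with equal weight. A difference of 25 points or more was called. This is a size rule and not a test. Strand pairs, inner tiles and stretches were added after seeing the data.

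The members, lists, windows and thresholds were chosen with earlier results of these data known. Named genes are the members, genes overlapping their windows (Grcc10, at the unmeasured 5' end of Ptpn6), up to 3 called windows per list and comparison with the largest difference, and the 3 windows closest in level to each of Havcr2 and Tnfsf14. Some of the genes this rule selects are not reported here. Alternatives covered the threshold, the cytosine minimum, shared cytosines, window size, the median, pooled ends and centring. Code was checked on simulated data, and run with NumPy 2.4.6 and pandas 2.3.3 under Python 3.11.15, with plots by matplotlib 3.10.9. The split of the Tnfsf14, Zap70 and Cd3e windows into cytosines inside and outside the printed promoter was chosen after their values were seen.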

Additional observations from a re-analysis of the deposited data

How the results depend on the processing

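No paired analysis was possible because each group holds 1 library. Of 255 recomputed values of called windows, 247 stayed past 25 points, 8 did not and 0 changed sign. These values leave out the other thresholds, and some settings could hardly move them. All 7 windows already held 5 or more shared cytosines, so that minimum repeated the main values. Pooling the ends added no shared cytosine where 1 end was measured, and centring subtracted at most 0.381 points. Of 295 values under the rule, 11 passed it in another setting. With a threshold of 15 points, 5 windows were called in P5_2iL minus muscle and 2 in P5_2iL_F minus P5_2iL. With 35 points, 2 were called in P5_2iL_F minus muscle, 2 in P5_a2iL_1 minus muscle and 1 in P5_LCDM_1 minus P5_2iL. On the first strand alone, where 4 windows remain, 1 was called in P5_2iL_F minus P5_2iL, 3 in P5_a2iL_1 minus P5_2iL and 2 in P5_LCDM_1 minus P5_2iL. The median over the windows moved more. For P5_2iL minus muscle it was 1.39 points with cytosines shared by the 2 libraries, 2.78 with 500 bp outside, 0 with the median over cytosines, 2.22 with both ends pooled and -14.3 on the second strand. For P5_2iL_F minus muscle it was -13.3 with shared cytosines, -13.3 with 500 bp outside, -9.51 with pooled ends, -13.3 on the first strand and -28.6 on the second. For P5_a2iL_1 minus muscle it was -28.5 on the first and -31 on the second strand. For P5_LCDM_1 minus muscle it was -25.6 with 500 bp outside, -23.7 with pooled ends and -32.1 on the second strand. The cause of the other moves was not tested. Depth is unknown for every value.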
